A study of Homo sapiens with 9 samples.

Results

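The gluconeogenesis set examined here consisted of 7 genes, *FBP1*, *FBP2*, *PCK1*, *PCK2*, *PC*, *G6PC3* and *PPARGC1A*, chosen by name and matched by NCBI gene identifier in a table of 28395 genes. All 7 were listed in the table. RNA was sequenced from 3 human cell lines with 3 libraries each, 9 in all, and every line was grown in Plasmax, a medium modelled on human plasma, without further treatment. HK2 is an immortalized proximal tubule line from normal kidney, labelled parental. 786-O is a parental line from a primary clear cell renal cell carcinoma (ccRCC), and 786-M1A is a metastatic derivative of 786-O recovered from lung after injection into mice. Both tumour lines trace back to 1 patient's cancer and HK2 to another donor, so the lines differ in donor and culture history as well as in disease. Replicates of a line were separate cultures, so p-values measure the spread between cultures of 1 line.

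Gluconeogenesis makes glucose from lactate, glycerol and amino acids, and in the kidney it is a function of the proximal tubule. It reverses glycolysis except at the steps that glycolysis drives in 1 direction, which it bypasses with enzymes of its own. Pyruvate carboxylase (PC) turns pyruvate into oxaloacetate, the phosphoenolpyruvate carboxykinases (cytosolic PCK1 and mitochondrial PCK2) turn that into phosphoenolpyruvate, the fructose-1,6-bisphosphatases (FBP1 in liver and kidney, FBP2 mainly in muscle) release the first phosphate and glucose-6-phosphatase the last. G6PC3 is the widely expressed form of glucose-6-phosphatase. PGC-1alpha, the product of *PPARGC1A*, is a coactivator that drives transcription of some gluconeogenic enzymes and of mitochondrial genes.

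Levels are given in CPM, counts scaled to a common library total after edgeR's TMM factors. Library totals ran from 30212291 to 45362428 counts, and the floor of 3 counts corresponded to 0.0649 to 0.0966 CPM. Floors and intervals cover counting error only. The 12695 genes whose average count reached 50 were tested by edgeR's quasi-likelihood method, and a gene was called where its Benjamini-Hochberg adjusted p, taken over all of them, was under 0.05. Of the 7 members, *PPARGC1A*, *PC*, *PCK2* and *G6PC3* passed this filter. *PCK1*, *FBP1* and *FBP2* did not, and their reads are given as counts. The lines were also checked against marker genes. *LRP2*, *SLC22A6* and *SLC22A8*, which define proximal tubule in tissue, had 0 counts in all 9 libraries, HK2 included, and the summed level of the 9 tubule markers was 115 to 121 CPM in HK2, 81.8 to 84.4 CPM in 786-O and 86.9 to 96.9 CPM in 786-M1A, most of it *GGT1*. *MIOX*, the other tubule marker tested, was at 9.18 CPM in HK2 and lower in both tumour lines (0.444 CPM in 786-O, log2 fold change -4.39, and 0.25 CPM in 786-M1A, -5.18). *GGT1* changed less (-0.42 and -0.29). Of the markers under the filter, *SLC34A1* and *SLC5A2* averaged less in the tumour lines than in HK2, and *AQP1* and *CUBN* did not. In HK2, 786-O and 786-M1A the means were 0.62, 1.06 and 0.822 CPM for *AQP1* and 0.74, 0.884 and 1.01 CPM for *CUBN*. The 6 ccRCC markers in the table summed to 248 to 255 CPM in HK2 and to 704 to 727 CPM in 786-O, and their sum was higher still in 786-M1A. *EGLN3*, *VEGFA* and *CD70* carried the rise. *PAX8* differed little from HK2 (log2 fold change -0.02 in 786-O and 0.12 in 786-M1A), and *ANGPTL4* was not called against HK2. *CA9* had at most 3 counts per library. Markers of endothelium, distal nephron and leukocytes (10 genes) each summed to at most 0.453 CPM in every library, with *PTPRC* and *CD3E* at 0. The 4 fibroblast markers, which tumour cells can also make, summed to 72.6 to 81.4 CPM in HK2, 279 to 348 CPM in 786-O and 20.4 to 23.9 CPM in 786-M1A. Their part in the results was not tested.

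The bases upstream of the transcription start are shown for *PPARGC1A*, the member that differed most, and for the *FBP1* and *FBP2* pair, whose reads were near 0 throughout. They are the 250 bases before a start in RefSeq (GRCh38.p14), 5′ to 3′ on the strand of the gene. Capitals mark matches on either strand to ACGTG or GCGTG, the core of hypoxia response elements, or to TGACG, a part of the cAMP response element. Where matches overlap, the capitals run on.
PPARGC1A, chr4:24472906-24473155, minus strand: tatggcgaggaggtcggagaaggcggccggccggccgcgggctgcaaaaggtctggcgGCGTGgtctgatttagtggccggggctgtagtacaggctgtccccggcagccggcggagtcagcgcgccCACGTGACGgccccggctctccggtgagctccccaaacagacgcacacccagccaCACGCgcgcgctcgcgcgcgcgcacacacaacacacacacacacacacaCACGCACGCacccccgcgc
FBP1, chr9:94639519-94639768, minus strand: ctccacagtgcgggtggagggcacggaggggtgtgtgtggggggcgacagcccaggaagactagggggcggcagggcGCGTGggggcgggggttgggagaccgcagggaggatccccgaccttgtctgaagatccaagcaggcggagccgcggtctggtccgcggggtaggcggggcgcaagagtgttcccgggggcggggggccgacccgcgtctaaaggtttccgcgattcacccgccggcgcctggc
FBP2, chr9:94593825-94594074, minus strand: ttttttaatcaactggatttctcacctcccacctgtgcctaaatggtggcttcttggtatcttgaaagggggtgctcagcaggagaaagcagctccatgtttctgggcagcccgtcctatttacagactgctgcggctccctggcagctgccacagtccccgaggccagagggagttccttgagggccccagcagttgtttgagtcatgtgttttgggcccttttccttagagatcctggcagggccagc
The *PPARGC1A* window shown was 70.8% G and C and held 33 CpG dinucleotides, 1.06 times the number its base composition gives. It belongs to the farthest of the RefSeq starts in the table, outside the GENCODE span of the gene, and in GENCODE release 44 an exon of a long noncoding RNA on the same strand overlaps it. A second RefSeq window of *PPARGC1A*, chr4:23881102-23881351, lies inside the gene and overlaps a UTR, so it is not printed. It was 44% G and C with 4 CpGs and a CpG ratio of 0.33. The *FBP1* window was 72.8% G and C with 26 CpGs and a CpG ratio of 0.85, whereas that of *FBP2* was 54.8% G and C with 3 CpGs and a ratio of 0.16, and it overlaps an exon of *PCAT7* on the other strand. Over the 35116 promoter windows of the RefSeq table the medians were 58% and 0.56. Hypoxia element cores occurred in 43.2% of all windows, among them those shown for *PPARGC1A* (6 matches) and *FBP1* (1 match). In the former, CACGTG reads as a core on either strand and was counted on each. No core was in the window of *FBP2* or in the second window of *PPARGC1A*. TGACG occurred in 21.2% of all windows and, among the 3 shown, only in that of *PPARGC1A*, once, where it overlaps a hypoxia core. The second *PPARGC1A* window had none. The full cAMP element TGACGTCA, found in 1.65% of all windows, and the composite element of C/EBP and ATF factors (TGATGNAA on either strand), found in 3.14%, were in none of the 3 shown. Both were also absent from the second *PPARGC1A* window. Neither *PPARGC1A* window lies at the upstream end of the GENCODE span of the gene. The *FBP1* window lies inside the GENCODE span of *FBP1*, short of its upstream end. Elements near a start at the upstream end of either span were thus not examined. Gene counts do not tell which start was used.

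*PPARGC1A*, the coactivator, had the largest log2 fold change of the 4 members tested in each comparison. It is NCBI gene 10891, on chr4:23755041-23904089 of GRCh38 (GENCODE release 44, minus strand). Its level was 68.7, 63.8 and 65.7 CPM in the 3 HK2 libraries, 4.71, 4.70 and 4.96 CPM in 786-O and 0.111, 0.208 and 0.264 CPM in 786-M1A. Every HK2 library was above every 786-O library, and every 786-O library above every 786-M1A library. Counts fell from 7757 in the HK2 libraries together to 596 in 786-O and 22 in 786-M1A. The ratio of HK2 to 786-O was 13.7 (95% counting interval 12.6 to 15), that of HK2 to 786-M1A was 337 (222 to 537) and that of 786-O to 786-M1A was 24.5 (16 to 39.4). The log2 fold changes of the fit were -3.79 for 786-O against HK2 (edgeR adjusted p = 1.29e-22), -8.38 for 786-M1A against HK2 (edgeR adjusted p = 2.16e-24) and -4.59 for 786-M1A against 786-O (edgeR adjusted p = 3.36e-15). Ordered from the most negative log2 fold change, the gene was number 520 of 12695 in the first comparison, 240 in the next and 63 between the tumour lines. The smallest two-sided p of an exact permutation test is 0.1 with 3 libraries in each line, and this was reached wherever the libraries did not overlap. In bulk RNA a smaller share of cells with the transcript and less transcript per cell cannot be told apart.

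**Figure D1:**
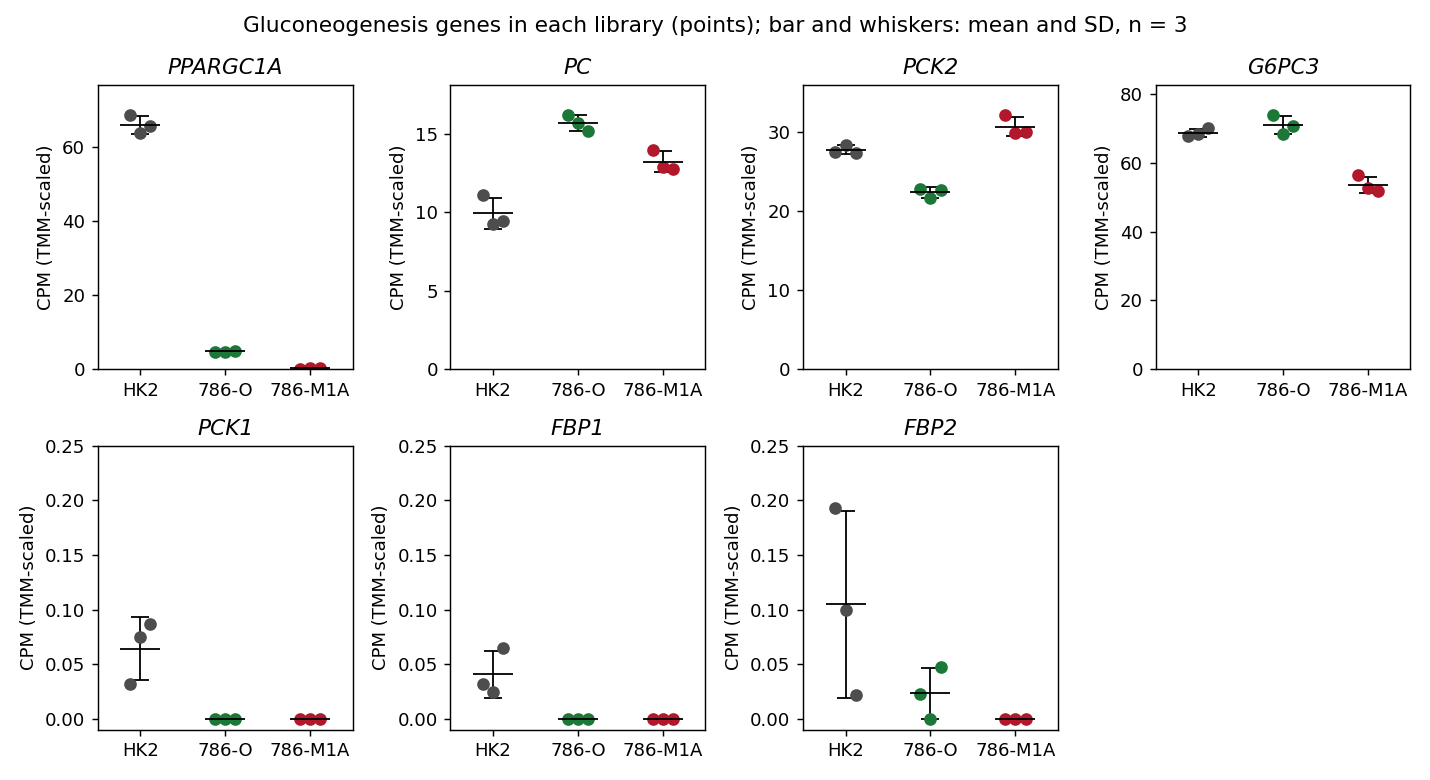
Level of each of the 7 genes in CPM (vertical axis, TMM-scaled, linear and of its own range in the upper row) in the 3 lines (horizontal axis). Points are libraries, and the bar with whiskers is the mean with the SD of 3 libraries. *PPARGC1A* drops from between 63.8 and 68.7 CPM in HK2 to at most 4.96 CPM in 786-O and to at most 0.264 CPM in 786-M1A, whereas *PCK1*, *FBP1* and *FBP2* stay under 0.2 CPM everywhere.

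Among the enzymes, mRNA for the first step of the pathway was at a higher level in both tumour lines than in HK2. *PC* (NCBI gene 5091, chr11:66848417-66958386, minus strand) codes for the mitochondrial, biotin-dependent carboxylase that also refills the tricarboxylic acid cycle. It was at 11.1, 9.25 and 9.45 CPM in HK2, at 16.2, 15.7 and 15.2 CPM in 786-O and at 14.0, 12.9 and 12.8 CPM in 786-M1A. Every tumour library was above every HK2 library, and every 786-M1A library was below every 786-O library. The log2 fold change was 0.67 in 786-O against HK2 (SE 0.072, edgeR adjusted p = 1.92e-08), 0.42 in 786-M1A against HK2 (SE 0.0743, edgeR adjusted p = 2.19e-05) and -0.25 in 786-M1A against 786-O (SE 0.0695, edgeR adjusted p = 0.0046). All of these were differences of less than 2-fold. Exons of *PC* overlap *LRFN4* on the opposite strand, which had 0 to 3 counts per library.

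Reads for the next step fell almost entirely on the gene of the mitochondrial enzyme. *PCK2* (NCBI gene 5106, chr14:24094053-24110598, plus strand) was at 27.5, 28.4 and 27.3 CPM in HK2, at 22.8, 21.6 and 22.7 CPM in 786-O and at 32.1, 29.9 and 30 CPM in 786-M1A. It was thus lowest in 786-O, with no overlap between lines. Against HK2 the log2 fold change was -0.31 in 786-O (SE 0.0506, edgeR adjusted p = 7.11e-06) and 0.14 in 786-M1A (SE 0.0495, edgeR adjusted p = 0.0116). The difference between 786-M1A and HK2 was no longer called without 786-M1A replicate 1 (log2 fold change 0.11, edgeR adjusted p = 0.0619) or with upper-quartile scaling (0.09, edgeR adjusted p = 0.0942). The 786-M1A level exceeded that of 786-O by a log2 difference of 0.46 (SE 0.0503, edgeR adjusted p = 1.08e-07). The cytosolic *PCK1* (NCBI gene 5105, chr20:57561080-57568121, plus strand) had 1, 3 and 4 counts in the HK2 libraries and 0 in all 6 tumour libraries. In HK2, 8 of 3278 reads on the pair were on *PCK1*, and *PCK2* held 99.8% of them (exact binomial 95% interval 99.52 to 99.89). In the tumour lines its share was 100%, with an interval that began at 99.87 in 786-O and at 99.89 in 786-M1A. Per length of exon sequence its share was 99.85% in HK2.

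Reads on the fructose-1,6-bisphosphatase genes were near the floor in all 3 lines. *FBP1* (NCBI gene 2203, chr9:94603133-94640249, minus strand) had 1, 1 and 3 counts in HK2 and 0 in every tumour library. *FBP2* (NCBI gene 8789, chr9:94558720-94593824, minus strand), its neighbour on the chromosome, had 6, 4 and 1 counts in HK2, 1, 0 and 2 counts in 786-O and none in 786-M1A. Summed over the HK2 libraries, *FBP1* was at 0.0436 CPM (Poisson 95% interval 0.0142 to 0.102) and *FBP2* at 0.096 CPM (0.0479 to 0.172). These sums are on library totals without the TMM factors. For *FBP1* and *PCK1*, at 0 in the tumour lines, the floor of 3 counts over the libraries together was 0.0242 CPM in 786-O (0.0258 CPM in 786-M1A), and the upper ends of the Poisson 95% intervals were 0.0298 and 0.0318 CPM. No fold is given, since nearly all of these values lay at or under 3 counts per library. In a fit without the filter on low counts, *PCK1* and *FBP1* were called lower in 786-O than in HK2 (edgeR adjusted p = 0.00925 and 0.0459), on 8 and 5 reads. In the same fit *PCK1* and *FBP2* were called lower in 786-M1A than in HK2 (edgeR adjusted p = 0.0123 and 0.00242), on 8 and 11 reads, and *FBP1* was not (edgeR adjusted p = 0.0548). Exons of both *FBP1* and *FBP2* overlap *PCAT7* on the opposite strand, which had 2 to 73 counts per library, and whether the strand was used in counting is not given in the sources used here.

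The last step was represented by *G6PC3* alone. *G6PC3* (NCBI gene 92579, chr17:44070620-44082151, plus strand) was at 67.8, 68.6 and 70.1 CPM in HK2, at 73.9, 68.6 and 70.8 CPM in 786-O and at 56.4, 52.6 and 51.9 CPM in 786-M1A. HK2 and 786-O overlapped, with a log2 fold change of 0.04 (SE 0.0434, edgeR adjusted p = 0.341), and all 786-M1A libraries lay below them. The log2 fold change in 786-M1A was -0.36 against HK2 (SE 0.0444, edgeR adjusted p = 1.22e-07) and -0.41 against 786-O (SE 0.0442, edgeR adjusted p = 7.7e-08). *G6PC1*, the form of liver and kidney that releases glucose to the blood, and *G6PC2*, the form of pancreatic islets, had 0 counts in all 9 libraries, so that all 8131, 8868 and 6022 reads of the family in HK2, 786-O and 786-M1A were on *G6PC3*. Exons of *G6PC3* overlap *HDAC5* on the opposite strand, which had 181 to 1077 counts per library, and their part in its counts was not tested.

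Counted together, 3 of the 4 members tested were called in 786-O against HK2, where 84.2% of all 12695 genes were. Of these 1 was higher and 2 were lower, beside 41.6% and 42.6% of all genes. In 786-M1A against HK2 all 4 were called, beside 84.9% of all genes, with 2 higher (41.6% of all genes) and 2 lower (43.3%). In 786-M1A against 786-O all 4 were called as well, beside 55.9% of all genes, with 1 higher (27.9%) and 3 lower (28%). The libraries of the lines did not overlap for 3, 4 and 4 of the 4 genes, compared with 85.4%, 85% and 61.6% of all genes tested. A call was thus the usual outcome for a tested gene. The median log2 fold change of the 4 was -0.14, -0.11 and -0.33, beside -0.01, -0.02 and 0.00 over all genes. Both comparisons against HK2 use the same HK2 libraries.

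**Figure D2:**
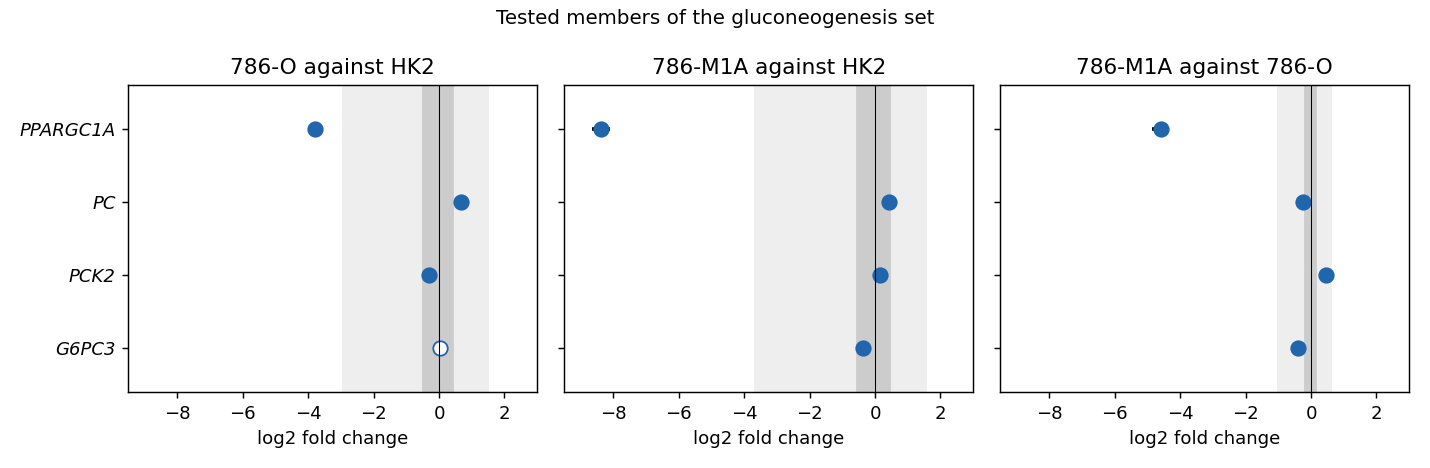
Log2 fold change (horizontal axis) of the 4 members tested in each comparison. Filled circles passed the adjusted p threshold and open ones did not, black lines span all alternative fits, the light band covers the middle 90% of all 12695 genes and the dark band the middle 50%. *PPARGC1A* lies to the left of the light band in every panel, and the enzymes lie between -0.41 and 0.67.

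Levels of different genes were compared per kilobase of exon sequence (RPKM). In HK2 the order was *G6PC3* (9.03 ± 0.153 RPKM, SD, n = 3), *PCK2* (6.65 ± 0.141), *PPARGC1A* (6.08 ± 0.225) and *PC* (1.36 ± 0.138). The order in 786-O was *G6PC3* (9.32 ± 0.345 RPKM), *PCK2* (5.35 ± 0.161 RPKM) and *PC*, and *PPARGC1A* had dropped to the last place with 0.44 ± 0.0135 RPKM, under *PC* with 2.15 ± 0.07 RPKM. In 786-M1A *PCK2* (7.34 ± 0.299 RPKM) and *G6PC3* (7.03 ± 0.315 RPKM) were neighbours whose libraries overlapped, and *PPARGC1A* was at 0.0179 ± 0.00715 RPKM. These lengths are the union of all annotated exons. With the longest transcript as the length, *G6PC3* in 786-M1A was at 17.4 ± 0.782 RPKM and *PCK2* at 12.2 ± 0.499 RPKM, so the order of that pair depends on the length used.

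Gluconeogenic mRNA was set against that of competing enzymes within each library. For the carboxykinases and bisphosphatases these were the glycolytic enzymes of the opposing direction. For *PC* it was *PDHA1*, which is not a glycolytic enzyme. The carboxykinases stood at 1.93%, 2.03% and 1.97% of the RPKM of the pyruvate kinases *PKM* and *PKLR* in HK2, at 1.18%, 1.15% and 1.18% in 786-O and at 1.73%, 1.71% and 1.70% in 786-M1A. *PKM* itself was at 337 RPKM in HK2, 457 RPKM in 786-O and 428 RPKM in 786-M1A. The ratio was lowest in 786-O and highest in HK2, without overlap. The log2 ratio differed by -0.76 between 786-O and HK2, by -0.21 between 786-M1A and HK2 and by 0.55 between 786-M1A and 786-O, against a spread within lines of at most 0.0316 (pooled SD). *PC* stood at 4.66%, 3.66% and 3.96% of *PDHA1*, a subunit of the pyruvate dehydrogenase that competes for pyruvate, in HK2, at 9.25%, 9.53% and 8.91% in 786-O and at 8.48%, 7.90% and 7.99% in 786-M1A. The level of *PDHA1* was 33.3 RPKM in HK2, 23.3 RPKM in 786-O and 22.3 RPKM in 786-M1A. On the log2 scale the ratio was higher than in HK2 by 1.18 in 786-O and by 1.00 in 786-M1A, and the difference of -0.18 between the tumour lines exceeded their pooled SD of 0.0517. *FBP1* and *FBP2* together stood at 0.186%, 0.105% and 0.0585% of the phosphofructokinases *PFKL*, *PFKM* and *PFKP* in HK2, at 0.0109%, 0% and 0.0235% in 786-O and at 0% in 786-M1A, values that rest on 16, 3 and 0 reads. These percentages depend on the gene lengths used. With the longest transcript the means in HK2 were 1.16% for the carboxykinases, 4.07% for *PC* and 0.056% for the bisphosphatases, in place of 1.98%, 4.09% and 0.116%, while the log2 differences of the first 2 ratios between lines were the same to 2 decimals. In the 6 comparisons of the carboxykinase and *PC* ratios the exact two-sided permutation test gave p = 0.1, the smallest possible, and 0.1 after Benjamini-Hochberg adjustment.

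**Figure D3:**
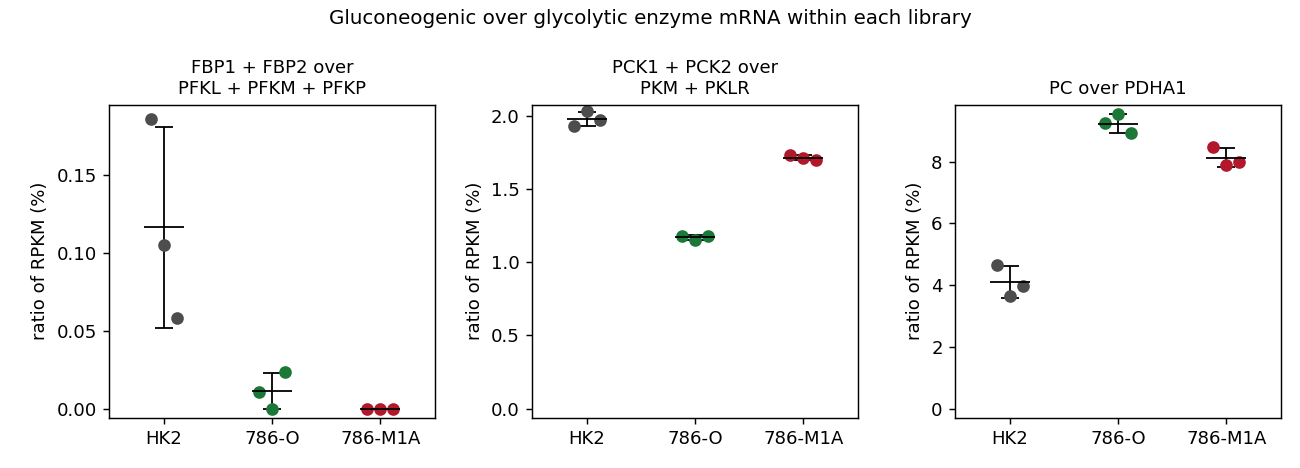
Ratio of gluconeogenic enzyme mRNA to that of competing enzymes in 3 pairs, by line. The vertical axis is in percent of RPKM, linear and of its own range. *PDHA1*, a subunit of pyruvate dehydrogenase, is not a glycolytic enzyme. Points are libraries, and the bar with whiskers is the mean with the SD of 3 libraries. The carboxykinase ratio is lowest in 786-O (1.17% ± 0.0194) and that of *PC* to *PDHA1* is lowest in HK2 (4.09% ± 0.515).

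The regulators of gluconeogenic transcription were a list of 13 genes, of which 9 were tested. In 786-O against HK2, 4 of the 9 were higher and 4 lower, and in 786-M1A against HK2, 3 were higher and 4 lower, with median log2 fold changes of -0.08 and 0.00. Over all genes tested, 41.6% were higher and 42.6% lower in 786-O, and 41.6% higher and 43.3% lower in 786-M1A, with medians of -0.01 and -0.02. *CEBPA*, a liver-enriched factor that acts on promoters of gluconeogenic genes, was at 9.80, 9.84 and 8.20 CPM in HK2, at 1.01, 0.929 and 0.708 CPM in 786-O and at 0 in all 786-M1A libraries. Its log2 fold change in 786-O was -3.38 (SE 0.136, edgeR adjusted p = 7.59e-15), and in 786-M1A it was at least 116-fold lower than in HK2 and at least 11-fold lower than in 786-O, taking 3 counts per library as the floor. *INSR*, the insulin receptor, whose signal restrains gluconeogenesis, was at 19 CPM in HK2 and had 0 counts in all 6 tumour libraries, at least 262-fold lower in 786-O and at least 238-fold lower in 786-M1A. *FOXO1*, a factor that insulin signalling keeps inactive, moved the other way, from 0.585 ± 0.194 CPM (SD, n = 3) in HK2 to 3.70 ± 0.517 CPM in 786-O and to 5.68 ± 0.315 CPM in 786-M1A, with log2 fold changes of 2.70 (edgeR adjusted p = 5.97e-12) and 3.33 (edgeR adjusted p = 3.74e-14). *NR3C1*, the glucocorticoid receptor, was higher than in HK2 by 1.73 in 786-O (edgeR adjusted p = 6.49e-20) and by 1.47 in 786-M1A (edgeR adjusted p = 9.84e-19). Against 786-O, 3 of the 9 were higher in 786-M1A and 3 lower, beside 27.9% and 28% of all genes. *FOXO1* (0.63) and *ATF4* (0.19) were among the former, and *CEBPA* and *NR3C1* (-0.26) among the latter. *INSR* passed the filter through its HK2 counts and is among the 9. It could not be called between the tumour lines, where it had 0 counts. *ATF4*, an activator of *PCK2* under amino acid stress, was lower in 786-O than in HK2 (-0.18, edgeR adjusted p = 0.000123) and did not pass the test in 786-M1A against HK2 (0.00, edgeR adjusted p = 0.924). *HNF4A*, a proximal tubule and liver factor, was under the filter, with 0, 2 and 1 counts in HK2, 20, 15 and 15 in 786-O and 0, 1 and 2 in 786-M1A. *GCGR*, the glucagon receptor, had 0 counts throughout, and *KLF15* had at most 3 counts per library.

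The list of PGC-1 relatives, partners and targets held 9 genes, 8 of them tested. In 786-O against HK2, 2 were higher and 3 lower (84.2% of all genes were called), with a median log2 fold change of -0.07. In 786-M1A against HK2, 3 were higher and 4 lower (84.9% of all genes were called), with a median of -0.38 beside -0.02 over all genes. *CPT1A*, which brings fatty acids into mitochondria, followed the order of *PPARGC1A* and went from 11.4 ± 0.308 CPM (SD, n = 3) in HK2 through 5.04 ± 0.44 CPM in 786-O to 2.13 ± 0.142 CPM in 786-M1A. Its log2 fold change was -1.18 in 786-O (edgeR adjusted p = 8.73e-12) and -2.42 in 786-M1A (edgeR adjusted p = 4.7e-16) against HK2, and -1.24 between the tumour lines (edgeR adjusted p = 2.62e-09). *PPARGC1B*, the closest relative of *PPARGC1A*, averaged 4.11 ± 0.0159 CPM in HK2 and 3.83 ± 0.334 CPM in 786-O, whose libraries overlapped, and 1.49 ± 0.211 CPM in 786-M1A. The change between the tumour lines was -1.35 on the log2 scale (edgeR adjusted p = 1.01e-08), while 786-O against HK2 gave -0.11 (edgeR adjusted p = 0.334). *PDK4* was lower than in HK2 in 786-O (-0.90, edgeR adjusted p = 8.97e-08) and in 786-M1A (-0.74, edgeR adjusted p = 1.53e-06). *NRF1* (0.41 in 786-O and 0.48 in 786-M1A) and *PPARA* (0.43 and 0.34) were higher than in HK2 in both. *ESRRA*, the nuclear receptor through which PGC-1alpha acts on mitochondrial genes, rose in 786-M1A against 786-O (0.41, edgeR adjusted p = 4.59e-05) and against HK2 (0.43, edgeR adjusted p = 8.67e-06). In the comparison of the tumour lines 1 of the 8 was higher and 3 lower, beside 55.9% of all genes called.

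**Figure D4:**
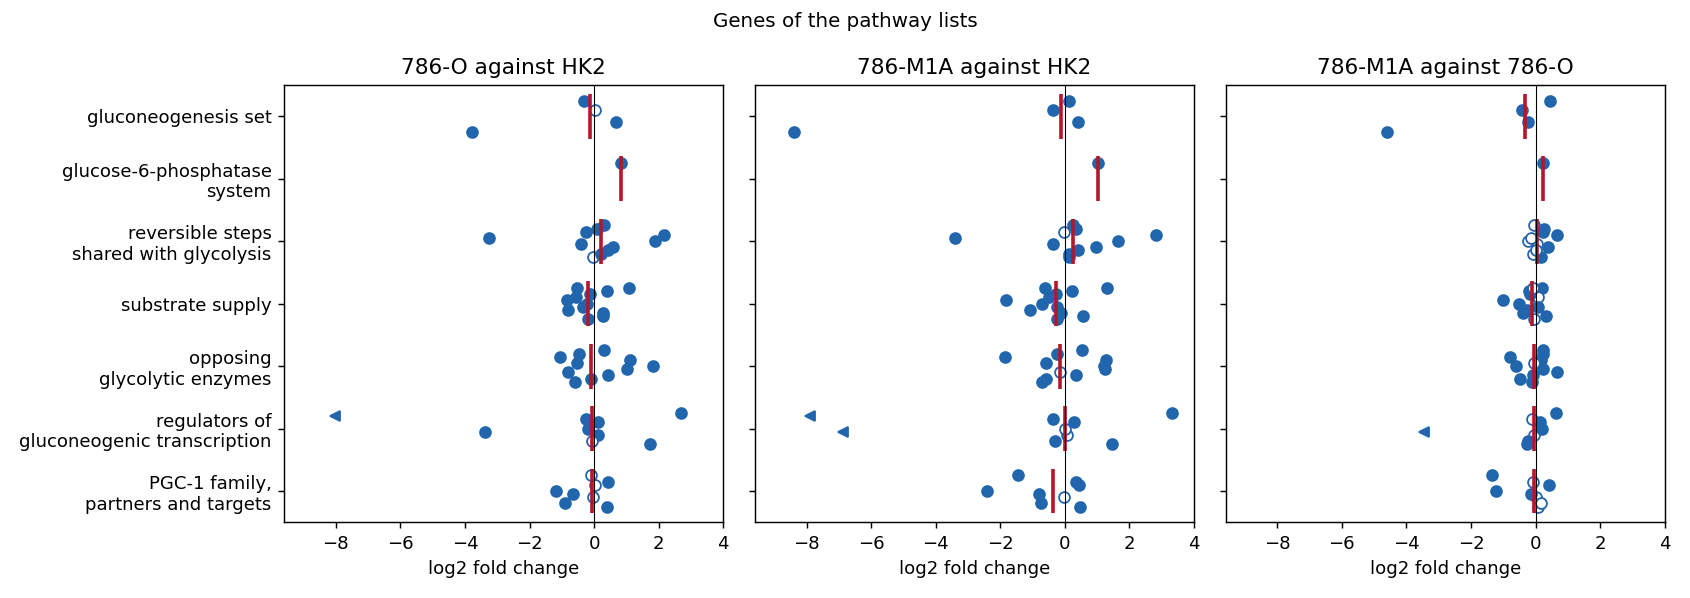
Log2 fold change (horizontal axis) of every tested gene in the gluconeogenesis set and the 6 pathway lists (rows). Filled symbols passed the adjusted p threshold, open ones did not, red bars are list medians, triangles are genes at 0 in 1 of the lines, drawn at their bound and lying there or further left (*INSR* and *CEBPA*), and *INSR* is not drawn between the tumour lines. Genes below -3 in at least 1 panel are *PPARGC1A*, *INSR*, *CEBPA* and *ENO3*, and list medians lie between -0.38 and 1.04.

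In the rest of the pathway, *SLC37A4*, which carries glucose-6-phosphate to the phosphatase in the endoplasmic reticulum, was the tested gene of its list of 3. Its mean level rose from 16 ± 0.597 CPM (SD, n = 3) in HK2 to 28.2 ± 0.216 CPM in 786-O and to 33 ± 1.4 CPM in 786-M1A, higher than in HK2 by log2 fold changes of 0.82 (edgeR adjusted p = 3.49e-12) and 1.04 (edgeR adjusted p = 3.67e-14). Its direction in 786-M1A was thus opposite to that of *G6PC3*. Of 12 genes for the reversible steps shared with glycolysis, 11 were tested, and against HK2 7 were higher and 3 lower in 786-O (41.6% and 42.6% over all genes), and 8 higher and 2 lower in 786-M1A (41.6% and 43.3%), with median log2 fold changes of 0.20 and 0.24 beside -0.01 and -0.02 over all genes. *ALDOC* rose (2.17 in 786-O and 2.83 in 786-M1A, edgeR adjusted p = 1.17e-09 and 2.67e-12), and so did *PGAM2* (1.89 and 1.65), whereas the muscle enolase *ENO3* fell (-3.27 and -3.39) and *GAPDH* was lower (-0.41 and -0.38). Between the tumour lines 5 of the 11 were higher in 786-M1A and 0 lower, beside 27.9% and 28% of all genes, the largest being *ALDOC* (0.66) and *ALDOA* (0.37).

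Of 14 genes of substrate supply 12 were tested, and against HK2 4 were higher and 8 lower in 786-O (41.6% and 42.6% over all genes), and 3 higher and 9 lower in 786-M1A (41.6% and 43.3%), with medians of -0.20 and -0.26 beside -0.01 and -0.02. The subunits of lactate dehydrogenase went in opposite directions. *LDHB*, the heart type that favours lactate use, fell (-0.80 and -1.08, edgeR adjusted p = 2.36e-14 and 1.03e-16), and *LDHA*, the muscle type that favours lactate production, rose (1.08 and 1.29, edgeR adjusted p = 6.02e-18 and 2.66e-19). *GK*, the kinase that admits glycerol to the pathway, fell stepwise from 11.7 ± 1.01 CPM (SD, n = 3) in HK2 to 6.63 ± 0.751 CPM in 786-O and to 3.3 ± 0.619 CPM in 786-M1A, and was 2-fold lower in 786-M1A than in 786-O (edgeR adjusted p = 1.11e-06). *MPC2* was higher than in HK2 in both tumour lines (0.40 in 786-O and 0.21 in 786-M1A). *MDH2* was higher in 786-M1A than in either other line (0.57 against HK2 and 0.31 against 786-O). *MPC1*, the partner of *MPC2* in the mitochondrial pyruvate carrier, was lower in 786-M1A than in 786-O (-0.50). From 786-O to 786-M1A 3 of the 12 were higher and 6 lower, beside 27.9% and 28% of all genes.

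Of 15 genes listed as opposing, 11 were tested. Besides glycolytic enzymes and their regulators, the list held *PDHA1* of pyruvate dehydrogenase. Against HK2, 5 were higher and 6 lower in 786-O, and 5 of each in 786-M1A. Over all genes tested, 84.2% and 84.9% were called. The list medians were -0.10 and -0.15. The phosphofructokinase subunits *PFKL* (1.10 in 786-O and 1.28 in 786-M1A) and *PFKP* (1.02 and 1.24) were higher in both tumour lines than in HK2. So was *PFKFB4* (1.82 and 1.21). *PFKFB2* was lower in 786-O (-1.05) and in 786-M1A (-1.84) than in HK2, as was *PFKM* (-0.60 and -0.70). The hexokinase 2 gene, which shares its symbol with the HK2 line, was lower in 786-O than in that line (-0.82, edgeR adjusted p = 3.17e-08), did not pass the test in 786-M1A (-0.15, edgeR adjusted p = 0.0728) and rose from 786-O to 786-M1A (0.67, edgeR adjusted p = 1.48e-06). From 786-O to 786-M1A 5 of the 11 were higher and 5 lower (55.9% of all genes were called), with *HK1* (0.24) among the former and *PFKFB2* (-0.79) and *PFKFB4* (-0.61) among the latter. The pyruvate kinase gene *PKLR* and the hexokinase gene *HK3* had at most 3 counts in any library.

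The genes most like each tested member were found by the root mean square difference of log2 CPM over the 9 libraries after each gene was centred on its mean, a description in which the libraries of a line share their source. For *PPARGC1A* they were *RRAGD* (0.361), *CLDN16* (0.374) and *CEBPA* (0.382), the last also a member of the regulator list. Their mean levels in HK2, 786-O and 786-M1A were 15.8, 1.20 and 0.0442 CPM for *RRAGD* and 10.7, 0.785 and 0.0088 CPM for *CLDN16*. For *PCK2* the nearest was *HEBP2* (0.0408), for *PC* *FLJ42627* (0.0546) and for *G6PC3* *PHB1* (0.0385), distances that are smaller than those for *PPARGC1A*, whose levels spanned a wider range and rest on few reads in 786-M1A.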

How the data were processed

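Total RNA of 9 cultures (TruSeq Stranded mRNA, Illumina NextSeq) was counted on genes by the authors with Rsubread (featureCounts, per the labels) on hg38, and the deposited values are raw counts per gene without normalization or filter. The annotation version and strand setting are not given in the sources used here. Groups and replicate numbers came from the sample titles. Counts were joined to symbols and promoters of RefSeq (GRCh38.p14), with 27745 of 28395 identifiers matched, and gene positions and lengths came from GENCODE release 44. The RefSeq promoter table matched 6 of the 7 members by symbol, and windows that overlap an annotated UTR were not printed. The 3 comparisons were contrasts of 1 edgeR 4.0.16 fit (TMM, robust quasi-likelihood, R 4.3.3) of all 9 libraries, with genes of a mean of at least 50 counts, the study's filter. A standard error is the size of the fitted change divided by the root of its F statistic. For *PPARGC1A* this is smaller than counting error, so exact intervals of the counts are given instead. The study itself used limma on VSN values, and limma-voom (limma 3.58.1) stands in for it among the alternatives, which were DESeq2 1.42.0, other scalings and filters, fits of the lines compared, a replicate block and leaving out each library. Exact permutation tests used log2 CPM (prior count 2). The ratio of *FBP1* and *FBP2* to phosphofructokinase was not tested, since it was 0 in some libraries. Replicate libraries differed by more than sampling noise (chi-square per gene of 2.9 to 7.87). The members and lists were chosen with earlier results of these data known. Genes were named by rule: all members, and per list and comparison up to 2 called genes with the largest difference in each direction, genes at 0 in a line, and the 3 of most like pattern. *HNF4A*, *PKLR* and, of the marker lists, *GGT1*, *MIOX*, *AQP1*, *CUBN*, *SLC34A1*, *SLC5A2* and the ccRCC markers were named after their values were seen. Some genes of the lists are not reported here.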

Additional observations from a re-analysis of the deposited data

Results flagged for a closer look

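Because both tumour lines were compared with the same HK2 libraries, the difference between their changes against HK2 is the direct comparison of 786-M1A with 786-O, and it passed the edgeR threshold for all 4 tested members. For *PPARGC1A* the change against HK2 was lower in 786-M1A (difference in log2 fold change -4.59, edgeR adjusted p = 3.36e-15, lower in 3 of 3 libraries), with adjusted p between 9.4e-129 and 4.81e-10 among the alternative fits. For *PCK2* it was higher by 0.46 (edgeR adjusted p = 1.08e-07, from 2.51e-15 to 2.96e-06), for *G6PC3* lower by -0.41 (edgeR adjusted p = 7.7e-08, from 5.73e-17 to 2.04e-06) and for *PC* lower by -0.25 (edgeR adjusted p = 0.0046, from 0.00183 to 0.027), each in 3 of 3 libraries.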

How the results depend on the processing

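No tested member reversed in any of the 3 comparisons under the alternatives that tested it. *PPARGC1A* was not tested with at least 10 counts required in every library, since 2 of the 786-M1A libraries had fewer, and the members called were then 2, 3 and 3 in place of 3, 4 and 4. Apart from this, a call of a tested member was lost only for *PCK2* in 786-M1A against HK2, whose log2 fold change of 0.14 was 0.09 with upper-quartile scaling and between 0.11 and 0.16 with each library left out, and was not called with the former or without 786-M1A replicate 1. Without a filter on low counts, 5 of the 7 members were called in 786-O against HK2 in place of 3, the added ones being *PCK1* and *FBP1*, both under the filter otherwise. Of single genes and counts in the pathway and marker lists, 2908 values under alternatives stayed on their side of the threshold, 34 lost and 22 gained a call, 6 counts of tubule markers called moved by over 1.5 times and 0 reversed. The median log2 fold change of all genes was between -0.07 and 0.01 under every alternative. With the replicate number as a block, *PPARGC1A* had log2 fold changes of -3.79, -8.38 and -4.59, the members called were 3, 4 and 4, and no call of a member changed. The deviations of same-numbered libraries from their line means correlated across genes at -0.0573 to -0.0285, -0.167 to 0.0376 and 0.074 to 0.215 in the 3 comparisons. Between the tumour lines, differently numbered libraries correlated at -0.15 to 0.0482, below all same-numbered ones. The main fit did not pair the samples by number, and a link by number between the tumour lines was not tested beyond the block fit. The differences between lines in the log2 ratios of carboxykinase to pyruvate kinase and of *PC* to *PDHA1* moved by less than the spread within lines under every length used and with any library left out. Depth limits *PCK1*, *FBP1* and *FBP2*, for which levels under about 0.1 CPM could not be told from 0 in a library.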
